A study of Mus musculus with 8 samples.

Results

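Granulocyte progenitors are the marrow-type precursors of neutrophils, and 72 of 21482 kept barcodes from tumour-bearing mouse livers met the rule that defined them here. A barcode, the tag of one droplet and usually of one cell, was a member if it held a UMI (a counted transcript molecule) of at least 2 of the 5 genes Elane, Mpo, Prtn3, Ctsg and Ms4a3. It also had to hold no UMI of Cxcr2, C1qa, Cd3e, Cd79a or Ncr1, which mark mature neutrophils, macrophages, T cells, B cells and natural killer (NK) cells. The members numbered 33, 0 and 13 in knockouts 1, 2 and 3 and 23, 0 and 3 in controls 1, 2 and 3. The defining genes and the 5 excluded ones are therefore described without a test.

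The libraries came from male C57BL/6 mice with liver tumours started at 8 to 10 weeks of age by hydrodynamic tail vein injection of 30 µg of plasmid. The plasmids carried a CRISPR guide against Trp53, a c-Myc transposon and the SB13 transposase, and tissue was taken 4 to 5 weeks later. The knockout group was Ncr1iCre Nr4a1fl/fl and the control group was Ncr1WT Nr4a1fl/fl, so both groups carried the floxed Nr4a1 alleles and the same tumour plasmids. Cre was driven by Ncr1, a gene of NK cells and group 1 innate lymphoid cells. Each group had 3 droplet libraries made with 10x 3′ chemistry for a target of 5000 cells, and knockout 3 pooled 2 mice while control 3 pooled 3 mice. The labels do not say how many animals stand behind the other libraries. Nr4a1 encodes the nuclear receptor Nur77, and members held 50.8, 12.1, 19.4 and 5.51 CPM of it in knockout 1, knockout 3, control 1 and control 3 (CPM, counts per 1000000 UMIs of the barcodes named). Reads from the 3′ end of a transcript with a floxed part that the labels do not name check neither the deletion nor the labels.

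Neutrophils are made in the bone marrow from granulocyte-monocyte progenitors. At the promyelocyte stage the cells fill azurophil (primary) granules with neutrophil elastase, proteinase 3, cathepsin G and myeloperoxidase. The next stages switch to specific (secondary) granule proteins such as lactoferrin and cathelicidin under the transcription factor C/EBP epsilon, and stop dividing. IRF8 directs the alternative path to monocytes. Elane, Prtn3 and Ctsg encode serine proteases, Mpo encodes myeloperoxidase, and Ms4a3 encodes a membrane protein of granulocyte-monocyte progenitors.

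The promoters of defining genes are shown because the rule takes these genes as a set, with Elane and Prtn3 lying side by side on chromosome 10. That the genes share barcodes here follows from the rule. Sequences are the 250 bases before the start site in RefSeq on build GRCm38.p6, 5′ to 3′ on the gene's strand, and capitals mark letters that match a motif on either strand. The motifs searched were GAGGAAGT (ETS family, to which PU.1 belongs), CAACNG (MYB), TTNNGNAA (C/EBP) and TGTGGT (RUNX), and no 2 matches overlapped. Fcnb is added as a gene of the later granules that leads the members below.
Elane (chr10:79886062-79886311, plus strand): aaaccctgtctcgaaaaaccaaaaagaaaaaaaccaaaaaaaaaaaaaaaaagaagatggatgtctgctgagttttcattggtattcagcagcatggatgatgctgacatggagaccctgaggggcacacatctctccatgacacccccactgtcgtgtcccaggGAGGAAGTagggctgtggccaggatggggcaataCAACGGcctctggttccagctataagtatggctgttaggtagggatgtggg
Prtn3 (chr10:79879417-79879666, plus strand): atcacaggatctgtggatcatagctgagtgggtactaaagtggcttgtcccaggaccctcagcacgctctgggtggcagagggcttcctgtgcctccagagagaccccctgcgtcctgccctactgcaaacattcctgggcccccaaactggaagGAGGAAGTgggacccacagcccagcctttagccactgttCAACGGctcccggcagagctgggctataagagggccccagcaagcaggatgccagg
Mpo (chr11:87793534-87793783, plus strand): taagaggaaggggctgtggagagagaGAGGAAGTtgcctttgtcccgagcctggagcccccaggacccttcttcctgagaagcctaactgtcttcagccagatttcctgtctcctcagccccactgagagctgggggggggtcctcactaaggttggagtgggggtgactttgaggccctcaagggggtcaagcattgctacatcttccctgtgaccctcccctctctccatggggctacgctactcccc
Fcnb (chr2:28084879-28085128, minus strand): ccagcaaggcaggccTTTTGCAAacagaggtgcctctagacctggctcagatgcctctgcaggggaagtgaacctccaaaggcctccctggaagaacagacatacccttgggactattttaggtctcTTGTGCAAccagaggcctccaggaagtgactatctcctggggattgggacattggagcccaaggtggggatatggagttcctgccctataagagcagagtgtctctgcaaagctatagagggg

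The start sites of Prtn3 and Elane lie 6645 bases apart. Both promoters hold the ETS letters followed by CAACGG, with the ETS match beginning 85 bases before the start of Elane and 95 bases before that of Prtn3. The MYB match begins 51 and 56 bases before these starts. The ETS letters also lie 224 bases before the start of Mpo. Of 32851 promoter windows of the same length in that table, 2.44% hold the ETS letters, 29.3% the MYB letters and 0.676% both. The Ctsg window holds 2 MYB matches and 1 RUNX match, and the Ms4a3 window 1 C/EBP match. Fcnb and Ltf, genes of later granules, hold 2 C/EBP matches each, as 36.8% of windows hold at least 1, and no motif was found in the window of Camp. A match is a run of letters and was not measured as a bound site in these libraries.

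The 6 libraries held 4126740 to 122609032 gene UMIs, and their kept barcodes had median depths of 1924.5 to 3914 UMIs. The libraries numbered 2 stood apart, with 134 kept barcodes in knockout 2 and 549 in control 2. The median mitochondrial share of barcodes with at least 500 UMIs was 75.1% in knockout 2 and 27.9% in control 2. Members had far deeper barcodes, with medians of 19123, 36845, 10829 and 59469 UMIs in knockout 1, knockout 3, control 1 and control 3, against 3875.5, 2624, 2897.5 and 3513 UMIs for the other kept barcodes of these libraries. A rule that needs UMIs of at least 2 genes favours deep barcodes. These medians include 14 hepatocyte-rich members, described below, with a median of 110282 UMIs, and control 3 had 3 members. No member's barcode sequence was kept in a second library.

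The members were most frequent in the libraries numbered 1 of both groups. They made up 1.19% of the 2777 kept barcodes of knockout 1 (exact binomial 95% interval 0.819% to 1.66%) and 0.2501% of 5197 in knockout 3 (0.133% to 0.427%). In the controls they made up 0.853% of 2697 in control 1 (0.541% to 1.28%) and 0.0296% of 10128 in control 3 (0.00611% to 0.0865%). Knockout 2 held 0 of 134 and control 2 held 0 of 549. There 3 counts would be 2.24% and 0.546%, and the exact intervals reach 2.72% and 0.670%. Knockout libraries averaged 0.479 ± 0.626% and control libraries 0.294 ± 0.484% (SD over 3 libraries in each group). The knockout minus control difference of 0.185 percentage points was smaller than the spread between libraries (exact two-sided permutation test, p = 0.7, where 3 against 3 libraries cannot go below 0.1). Without knockout 1 the difference was -0.169 percentage points, and without control 1 it was 0.465. The ranges of the groups overlapped, and the libraries numbered 1 and 3 differed more within a group than same-numbered libraries did between groups.

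**Figure D1:**
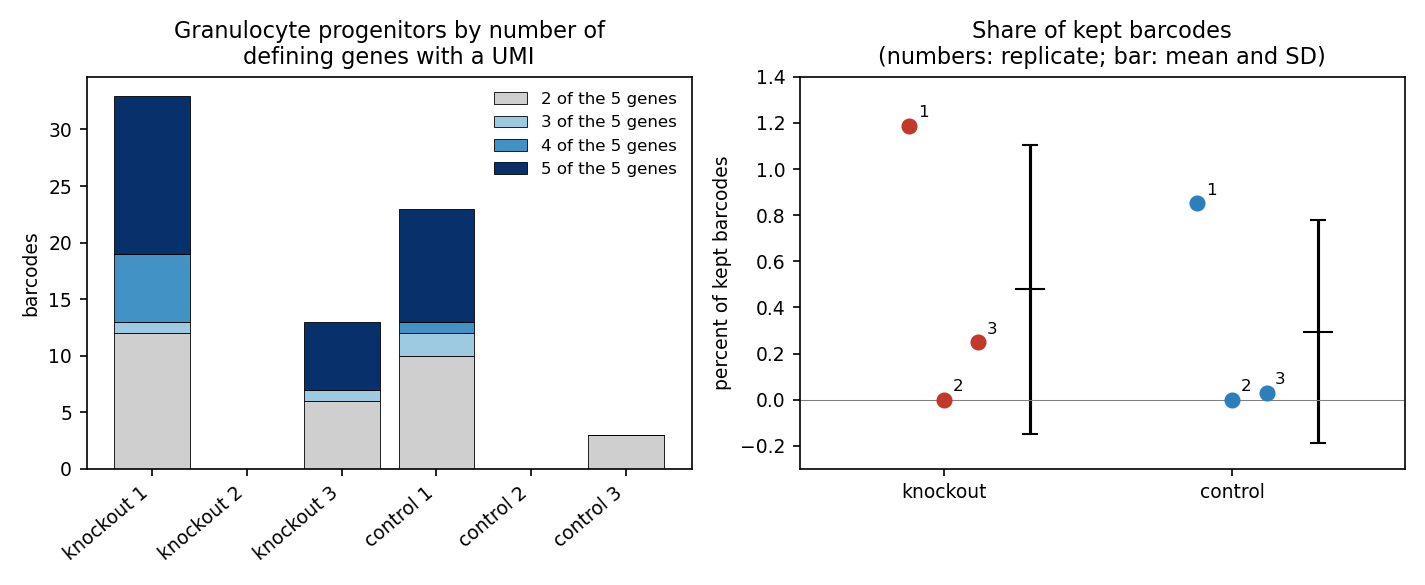
Left, number of member barcodes in each library, stacked by how many of the 5 defining genes had a UMI. Right, members as a percent of kept barcodes, with each point a library and the bar the mean and SD of the 3. Knockout 1 and control 1 hold 33 and 23 of the 72 members, and both libraries numbered 2 hold none.

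Set against mature neutrophils, the members showed the same order of libraries. Mature neutrophils were taken as barcodes with a UMI of Cxcr2 and of S100a8, none of the other 4 excluded genes and fewer than 2 defining genes, and numbered 15, 7 and 105 in knockouts 1, 2 and 3 and 22, 16 and 80 in controls 1, 2 and 3. Members made up 68.8%, 0% and 11.02% of members plus mature neutrophils in knockouts 1, 2 and 3 and 51.1%, 0% and 3.61% in controls 1, 2 and 3. Knockout libraries averaged 26.6 ± 36.9% and control libraries 18.2 ± 28.5% (SD over 3 libraries in each group), and the difference of 8.35 percentage points did not exceed the spread (exact two-sided permutation test, p = 0.7). It was -12.7 without knockout 1, 24.8 without control 1 and -0.774 without control 2.

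In the libraries numbered 3 the whole-file UMIs of a defining gene include those of the members, so they are no separate measure of the counts. Knockout 3 held 7 barcodes with at least 3 defining genes, and control 3 held 0 of 10128, where 3 counts would be 0.0296%. Elane had 1531 UMIs in all barcodes of knockout 3 (17.4 CPM of that file), and 1326 of these lay in the 7 barcodes. Control 3 had 8 UMIs of Elane (0.0652 CPM). In the first pair of libraries Elane stood at 167 CPM of the file in knockout 1 and 24.1 CPM in control 1, and it had no UMI in either library numbered 2. Hashtags, the antibody tags that mark each pooled mouse, assigned 4 members of knockout 3 to the first mouse and 1 to the second, marked 2 as multiplets and left 6 unassigned. All 4 of those from the first mouse held at least 3 defining genes. The 3 members of control 3 held 2 defining genes each, and 2 of them came from the first of its mice.

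The number of defining genes separated the members into a clear and an uncertain set. All 5 genes were read in 30 barcodes, with a median of 360 UMIs of them, 4 genes in 7 barcodes and 3 genes in 4 barcodes. The other 31 barcodes held 2 of the genes, with a median of 3 UMIs. Prtn3 was among the genes of 28 of these 31. Just outside the rule lay 760 barcodes with 1 of the genes, 693 of them with Prtn3, at a median depth of 70666 UMIs. Another 20 barcodes held at least 2 of the genes but also an excluded one, and 9 of these had Cxcr2. The 9 lay in the knockout libraries only, 5 in knockout 1 and 4 in knockout 3. With at least 3 defining genes, the left-out barcodes numbered 6 in knockout 1, 3 in knockout 3, 1 in control 3 and 0 in control 1. The highest of the 20, in knockout 1, held 3313 UMIs of the defining genes with 1 UMI of Cxcr2.

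Prtn3 was also read at a low level in other cell types, where the remaining defining genes were nearly absent. It had a UMI in 0.861% of 3483 T cells (median depth 5055 UMIs), 4.08% of 245 mature neutrophils (median depth 2743 UMIs) and 19.3% of 3515 barcodes with 10 or more UMIs of the 7 hepatocyte genes (median depth 14075 UMIs). Elane had a UMI in 0.0287% of the T cells, in no mature neutrophil and in 0.142% of the hepatocyte-type barcodes. The hepatocyte-type barcodes leave out all members, and the neutrophils hold fewer than 2 defining genes by rule. Shares of the remaining genes in these groups are therefore limited by the choice of the barcodes. Among the members, 14 held 179 to 1900 UMIs of the 7 hepatocyte genes (Alb, Apoa1, Apoa2, Ttr, Serpina1a, Fgb and Trf), while no other member held more than 8. Their median depth was 110282 UMIs, they carried 54.9% of all UMIs of the members, and 13 of the 14 held 2 defining genes. They numbered 4, 4, 5 and 1 in knockout 1, knockout 3, control 1 and control 3. In each of these barcodes the hepatocyte UMIs outnumbered those of the defining genes.

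Of the other barcodes with 2 defining genes, most carried genes of neighbouring myeloid states. Of 17 such barcodes, 8 held at least 20 UMIs of the monocyte genes (Csf1r, Ccr2, F13a1, Ms4a6c, Ly6c2 and Fn1), 5 held at least 100 UMIs of secondary granule genes, 1 met both and 5 met neither. A further barcode of knockout 1 held 158 UMIs of Pf4, the platelet factor of megakaryocytes. In knockout 3, 1 barcode with all 5 defining genes held 368 UMIs of Mcpt8, a basophil protease.

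**Figure D2:**
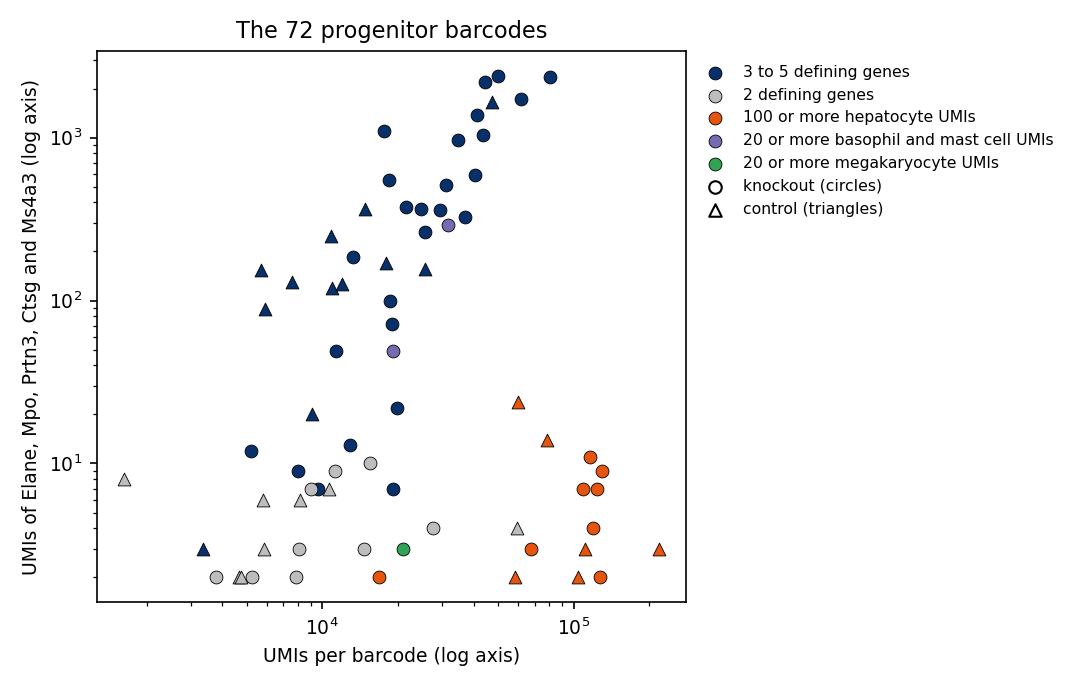
Summed UMIs of the 5 defining genes against all UMIs of a barcode for the 72 members, both on log axes, with circles for knockout and triangles for control libraries. Most of the 14 barcodes rich in hepatocyte genes lie at the lower right, with 2 to 24 defining UMIs, and the barcodes with 3 to 5 defining genes reach 2394.

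The biology below is described in the 40 core barcodes that held at least 3 defining genes and fewer than 100 hepatocyte UMIs, a set chosen after the values were seen. They numbered 21 in knockout 1, 7 in knockout 3 and 12 in control 1, with median depths of 19835, 31696 and 10897 UMIs. Doublet marks (hashtag multiplets or the highest Scrublet scores) fell on 4, 2 and 0 of them in these libraries. The gene values and ratios of the core were not repeated without the marked barcodes. Cd3e, Cd79a, C1qa, Ncr1 and Cxcr2 were at 0 in the core by rule. Among all 41 barcodes with 3 or more defining genes, the T cell list summed to 0.980 CPM and the macrophage list to 10.8 CPM, against 541.5 and 99.4 CPM in the kept barcodes that were no members. The basophil and mast cell list summed to 719 CPM there, against 46.8 CPM in other kept barcodes, and 660 of its UMIs came from the barcode with Mcpt8.

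The 5 defining genes, by which the barcodes were chosen, summed to 2.14% of all core UMIs, and to 2.02%, 2.64% and 1.89% in knockout 1, knockout 3 and control 1. Elane, neutrophil elastase, had a median of 3120 CPM per barcode in knockout 1 (0 to 34692), 1860 in knockout 3 (126 to 15044) and 3417 in control 1 (278 to 13518). Prtn3, proteinase 3, was read in every core barcode, with medians of 3023, 3718 and 3193 CPM in these 3 libraries. Mpo had medians of 2050, 2303 and 2184 CPM. The ranges of the libraries overlapped for each of these genes. Ctsg had medians of 1918, 3442 and 2812 CPM, and Ms4a3 of 569, 789 and 377 CPM.

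Genes outside the rule with azurophil roles were present too. Prss57, neutrophil serine protease 4, had a UMI in 25 of 40 core barcodes and in 1 of the 235 mature neutrophils with fewer than 100 hepatocyte UMIs. Serpinb1a, an inhibitor of these proteases, had a UMI in 37 core barcodes and in 11 of the 235 neutrophils. Cst7, a cathepsin inhibitor, had a UMI in 25 core barcodes and in no neutrophil, and Ctsc, which activates the serine proteases, in 19 and 9. Srgn, the proteoglycan core of granules, was read in 39 of 40 and in 233 of 235. The neutrophil barcodes were shallower (median 2658 UMIs, against 19033 in the core), so shares with a UMI are not matched for depth.

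Leading genes of the barcodes with 3 or more defining genes, ranked by their CPM over that of all other kept barcodes, were Dio2, Fcnb and Prss57, with CPM ratios of 373, 305 and 270. Dio2 encodes a deiodinase that activates thyroid hormone, and had a UMI in 19 of 41 barcodes and in 0.0933% of other kept barcodes. Fcnb encodes a ficolin of granules and stood at 697, 297 and 605 CPM in knockout 1, knockout 3 and control 1. Cebpe, the factor of the secondary granule programme, stood at 248, 246 and 203 CPM. Others among the first 25 were Abca13, Dach1, Gria3, Ncam1, Rab44, Trem3, S100a8 and Camp. This list describes cells picked by related genes and tests nothing.

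The genes whose level followed the defining genes most closely were Nkg7 (Spearman rho = 0.76), Prss57 (0.74), Alas1 (0.74), Etfb (0.72) and Tmed3 (0.68). These values run over 41 barcodes and 6908 genes, and the barcodes share libraries and differ in depth. Alas1 makes the first step of haem synthesis, and haem is the cofactor of myeloperoxidase. Nkg7 is a granule membrane protein best known from NK cells, and was read in 31 of 40 core barcodes, where Ncr1 was 0 by rule. The NK cell list owes its 592 CPM in these 41 barcodes to 2 of its 5 genes.

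The core barcodes fell into 3 states by Camp (cathelicidin) and Irf8, a split made after the values were seen and so given without a test. In the set with at least 3 UMIs of Camp there were 15 barcodes, 8 in knockout 1, 2 in knockout 3 and 5 in control 1. In the set with at least 3 UMIs of Irf8 there were 10, split 5, 3 and 2 over these libraries, and 15 held fewer than 3 UMIs of each, split 8, 2 and 5 and called the set low in both. Camp and Irf8 never shared a core barcode: 16 held a UMI of Camp alone, 14 of Irf8 alone and 10 of neither. Cebpe and Irf8 shared 6 barcodes at 1 UMI or more, 1 at 3 or more and 0 at 5 or more, where Cebpe alone marked 16 and Irf8 alone 9. Each of the 3 sets was present in knockout 1, knockout 3 and control 1.

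**Figure D3:**
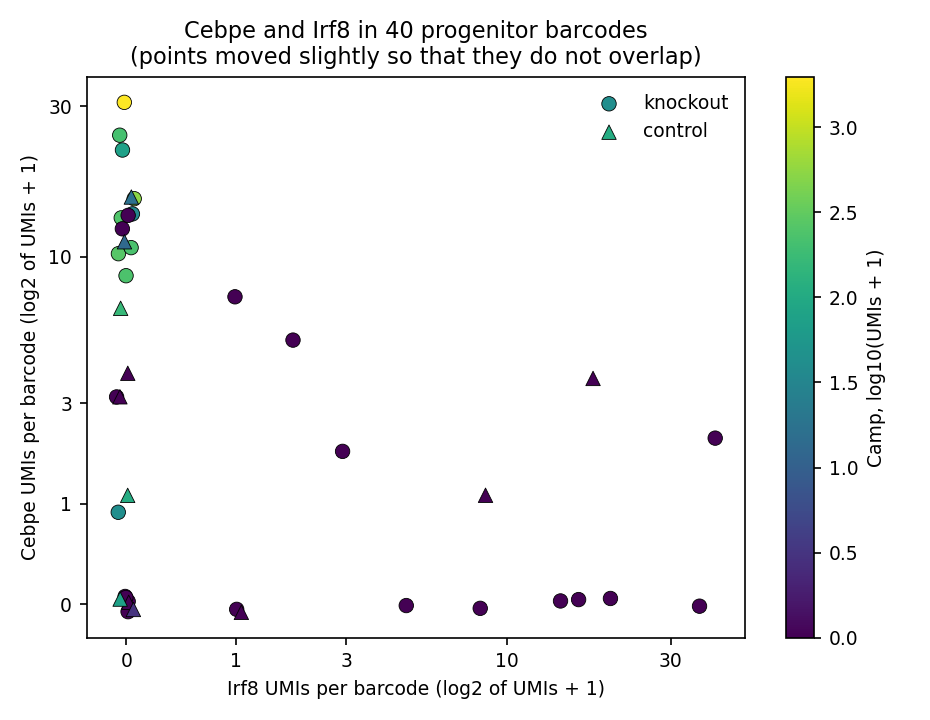
UMIs of Cebpe against UMIs of Irf8 in the 40 core barcodes, each on a log2(UMIs + 1) scale, coloured by log10(Camp UMIs + 1), with points moved slightly apart, circles for knockout and triangles for control. Barcodes high in Cebpe and Camp line the left edge, and those with 3 or more Irf8 UMIs hold no Camp.

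The Camp set carried the late granulocytic programme. Its Camp level, at a median of 12459 CPM, follows from the split. Other medians were 2245 CPM for Ngp (neutrophilic granule protein), 1322 CPM for Fcnb and 497 CPM for Cebpe. S100a8 and S100a9, the calprotectin subunits, had medians of 84743 and 84611 CPM there, against 32.2 and 0 in the Irf8 set and 0 and 0 in the set low in both. S100a8 still had a UMI in 6 of 10 Irf8 barcodes and 7 of 15 of the set low in both. In control 1 its medians were 64785 CPM in the Camp set, 4030 CPM in the Irf8 set and 730 CPM in the set low in both. Gfi1, a repressor needed for neutrophil fate, had a UMI in 9 of 15 barcodes of the Camp set, 2 of 10 of the Irf8 set and 4 of 15 of the set low in both. Lactoferrin (Ltf), among the latest of these granule genes, had a UMI in 6 of 15 barcodes of the Camp set and in none of the others. The defining genes, by which the barcodes were chosen, were still high in the Camp set, with a median sum of 23873 CPM. The Irf8 set stood at 9585 CPM and the set low in both at 10620 CPM. In knockout 3, with 2 barcodes in each set, the set low in both stood above the Camp set, at 28570 and 25419 CPM.

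The Irf8 set carried genes of the monocyte path. Ms4a6c had a UMI in all 10 barcodes, Csf1r, the receptor of macrophage colony-stimulating factor, in 8, F13a1 in 8, the chemokine receptor gene Ccr2 in 7 and the transcription factor gene Klf4 in 5. In the Camp set these numbers were 0, 1, 1, 1 and 0 of 15. Ly6c2, by contrast, was read in 10 of 10 barcodes of the Irf8 set and 14 of 15 of the Camp set, and in 5 of 15 of the set low in both. Fcnb was also read in 8 of the 10 Irf8 barcodes.

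Of the 3 sets, the one low in both had the highest median of the early progenitor list. Sox4 had a UMI in 11 of the 15, Kit, the stem cell factor receptor, in 9 and Meis1 in 7, against 1, 2 and 1 of 10 in the Irf8 set and 1, 4 and 1 of 15 in the Camp set. The median of the early progenitor list was 1483 CPM, against 361 CPM in the Irf8 set and 317 CPM in the Camp set. The set low in both includes the 2 core barcodes with at least 20 UMIs of the basophil and mast cell genes. One is the barcode with Mcpt8, which itself gives the median of 1483 CPM. By library the medians of the set low in both were 1514, 912 and 1726 CPM in knockout 1, knockout 3 and control 1. Myb, needed for progenitor growth, had a median of 341 CPM there, 92.8 CPM in the Irf8 set and 77.3 CPM in the Camp set. Cd34 went another way, with a UMI in 7 of 10 Irf8 barcodes, 5 of 15 of the set low in both and 0 of 15 in the Camp set. The mast cell protease gene Cpa3 had a UMI in 6 of the 15 barcodes low in both and in none of the 25 others. Flt3, of lymphoid-primed progenitors, was read in 1 of the 40.

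Genes of mature neutrophils outside the calprotectin pair were nearly absent from the core. Il1b and Mmp9 had no UMI in any of the 40 barcodes, and Retnlg, a resistin-like gene of circulating neutrophils, had UMIs in 1. In the 235 mature neutrophils, 207 held Il1b, 124 Mmp9 and 185 Retnlg, at the lower depth given above. Csf3r, the receptor of granulocyte colony-stimulating factor, was read in 22 of 40 core barcodes, with a median of 30.7 CPM, and in 212 of 235 neutrophils, with a median of 1309 CPM. Cxcl2, a neutrophil-attracting chemokine, was read in 3 and 178. Arg1, Nos2 and Ptgs2, often used for suppressive myeloid cells, had no UMI in the core.

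**Figure D4:**
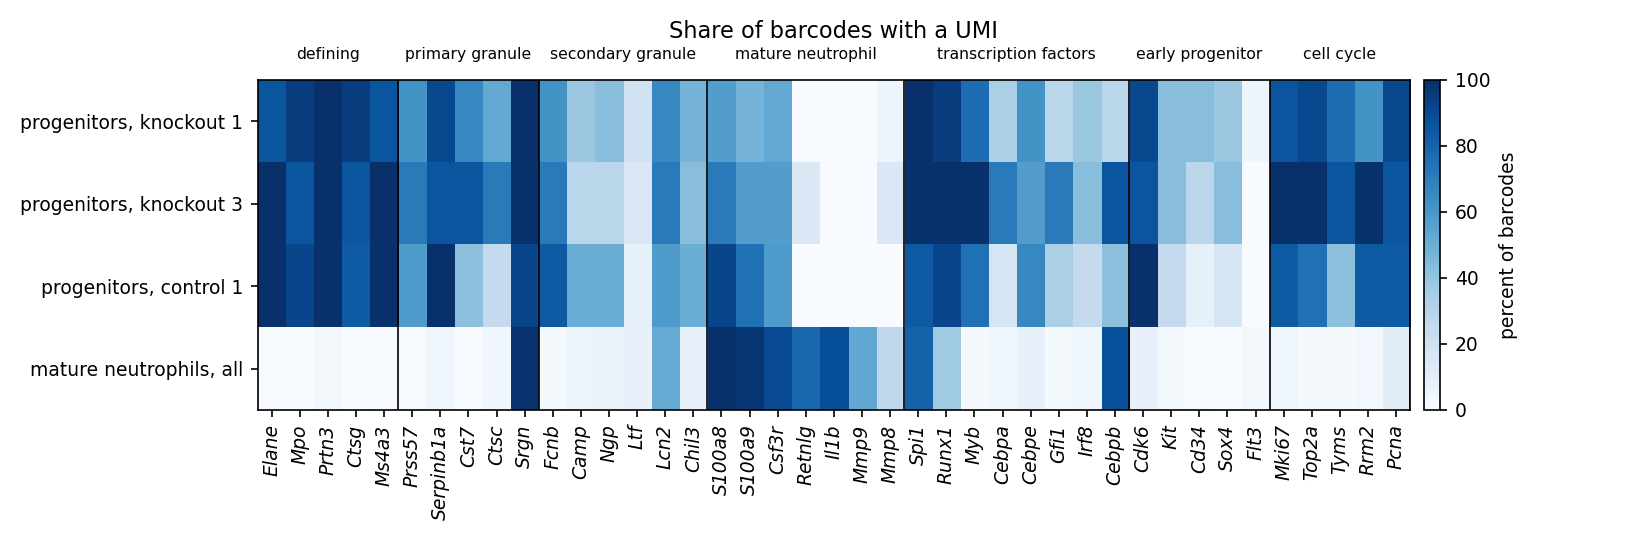
Percent of barcodes with a UMI of each gene in the core progenitors of knockout 1 (21 barcodes), knockout 3 (7) and control 1 (12) and in 235 mature neutrophils, not matched for depth. The defining columns, and S100a8 in the neutrophils, follow from the choice of the barcodes. Among the others Myb marks 32 of the 40 progenitors and 2 neutrophils, and Il1b marks 207 neutrophils and no progenitor.

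General myeloid transcription factors were widely read. Spi1, which encodes PU.1, and Runx1 had a UMI in 38 of 40 core barcodes each, with medians of 321 and 538 CPM. Myb was read in 32 core barcodes and in 2 of the 235 neutrophils. Cebpa, the factor of entry into the granulocyte-monocyte path, was read in 14, and Irf8 and Gfi1 were read in 14 and 15 and Gata1 and Gata2, of the erythroid and mast cell paths, in 2 and 3. Cebpb went the other way, with a UMI in 17 of 40 core barcodes and in 206 of 235 neutrophils (median 4132 CPM).

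Most members held cell cycle transcripts. Of the 32 genes of the S phase and G2/M lists, at least 3 were read in 64 of 72 members. By library these were 29 of 33 in knockout 1, 12 of 13 in knockout 3, 20 of 23 in control 1 and 3 of 3 in control 3. Thinned to 1000 UMIs per barcode, 40 of 72 members still held at least 3 of the genes, against 7 of 239 mature neutrophils, where 6 shallower barcodes were left out. The members include the 14 hepatocyte-rich barcodes, and among the 40 core barcodes, thinned, 26 held at least 3 of the genes. Before thinning the neutrophils stood at 15 of 245, and T cells, thinned, at 12.6% of 3473. Mki67 and Top2a, a proliferation marker and a topoisomerase of dividing cells, had a UMI in 35 core barcodes each. Median levels of the G2/M list were 1783 CPM in the Camp set, 1432 CPM in the Irf8 set and 1399 CPM in the set low in both.

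The share with cycling genes was compared between groups only as values, since control 1 was the one control library with 10 members. It was 87.9% and 92.3% in knockouts 1 and 3 and 87.0% in control 1, a difference of 3.14 percentage points between the mean of the knockout libraries and control 1. Thinned, the shares were 54.5% and 46.2% in knockouts 1 and 3 and 60.9% in control 1, so over all members the sign turned. In the core barcodes, thinned, they were 66.7% and 71.4% in knockouts 1 and 3 and 58.3% in control 1. For secondary granule genes, a UMI of Ltf, Camp, Ngp or Lcn2 was read in 54.5% and 61.5% of members of knockouts 1 and 3 and in 52.2% of control 1. Thinned, these were 30.3% and 30.8% in knockouts 1 and 3 and 34.8% in control 1, and in the core barcodes 7 of 21 and 2 of 7 in knockouts 1 and 3 and 6 of 12 in control 1. At matched depth the cycling difference had opposite signs in all members and in the core, and the secondary granule share was lower in both knockout libraries in either set, without a test. These shares leave out the barcodes with a Cxcr2 UMI, 5 in knockout 1, 4 in knockout 3 and 0 in control 1, and some of those in knockout 1 were rich in Camp.

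**Figure D5:**
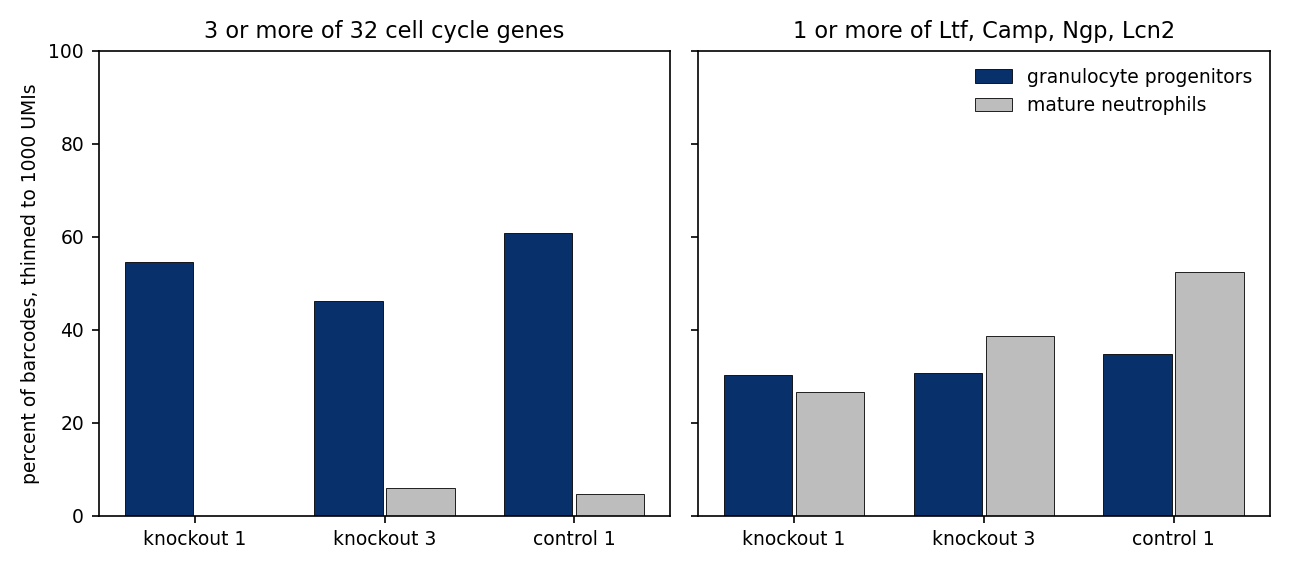
Percent of barcodes, each thinned to 1000 UMIs, with at least 3 of 32 cell cycle genes (left) and with a UMI of Ltf, Camp, Ngp or Lcn2 (right). Bars show all members, labelled granulocyte progenitors, and mature neutrophils of the libraries with 10 or more members. The members include 4, 4 and 5 hepatocyte-rich barcodes in knockout 1, knockout 3 and control 1. Cycling transcripts mark 46.2% to 60.9% of members and 0% to 5.94% of neutrophils, while the secondary granule shares overlap.

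Biosynthetic genes were higher in the sets without Camp. The 14 genes of the endoplasmic reticulum folding list had a median sum of 7439 CPM in the set low in both, 6943 CPM in the Irf8 set and 3379 CPM in the Camp set, and 929 CPM in the 235 neutrophils. The chaperone gene Hspa5 was read in 39 of 40 core barcodes, with a median of 937 CPM. The ribosome biogenesis list stood at 3325, 3312 and 1155 CPM in these sets. Among its members Npm1 and Ncl, of the nucleolus, were each read in 37 core barcodes. Genes of the NADPH oxidase, which makes the respiratory burst, were widely read: Cyba, Ncf1, Ncf4 and Rac2 were read in 34 to 36 core barcodes, and Cybb, its catalytic subunit, in 21.

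Growth factor and homing receptors were low. Csf2ra, of the receptor of granulocyte-macrophage colony-stimulating factor, had a median of 106 CPM and a UMI in 31 core barcodes. Cxcr4, the receptor that retains neutrophils in marrow, was read in 28 of 40 and in 124 of 235 neutrophils. The integrin gene Itga4 was read in 28 and 47, and Itgam, a myeloid integrin gene, in 21 and 126. Immediate early genes were mostly lower per barcode than in neutrophils: Fos was read in 18 of 40 core barcodes and 207 of 235 neutrophils, and Junb, at a median of 128 CPM in the core, stood at 7100 CPM in neutrophils. Jun went the other way, with medians of 851 and 419 CPM. Nr4a1 had a UMI in 11 of 40 and 137 of 235.

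Knockout and control core barcodes were compared as CPM ratios of summed counts with control 1 as the shared control, which gives no replicate check. Of 5220 genes with 20 UMIs over knockout 1 and control 1, 9.25% were at least 2-fold higher and 5.29% at least 2-fold lower in knockout 1. Of 2954 genes over knockout 3 and control 1, 6.5% were higher and 13.7% lower in knockout 3. The medians over all genes were 0.02 and -0.07 on the log2 scale. The azurophil partner list held 0 of 11 genes past 2-fold in knockout 1 and 0 of 10 in knockout 3, with median log2 ratios of 0.02 and 0.22. None of the genes of endoplasmic reticulum folding passed 2-fold either (14 in each comparison, medians -0.20 and 0.18).

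Among the stage genes, Camp stood at 5608 and 2771 CPM in knockouts 1 and 3 and 2178 CPM in control 1, or 1.36 and 0.35 as log2 ratios. In knockout 1, 1972 of its 3217 Camp UMIs lay in 1 barcode. Without that barcode the library stood at 2349 CPM, or 0.11 as a log2 ratio, so the core value rests on it. The core leaves out 5 barcodes of knockout 1 with a Cxcr2 UMI. Some of these held 1059, 2117 and 1207 Camp UMIs and the others 0, and control 1 lost no barcode to an excluded gene. Ngp gave log2 ratios of 1.46 and 0.05, the first of them 0.54 without the barcode with most Ngp UMIs, and neither gene then passed 2-fold in either library (a setting chosen after the values were seen). Chil3, a chitinase-like gene of the same stage, gave -1.64 and -0.89. Cebpe gave -0.12 and -0.13, and Irf8 gave 0.10 and 0.40. Of the 6 secondary granule genes measured, 2 were past 2-fold higher and 1 lower in knockout 1, with a median log2 ratio of 0.08. In knockout 3, 1 was higher and 1 lower, with a median of -0.20. Medians per core barcode, unlike summed counts, were lower in both knockout libraries than in control 1, without a test. The secondary granule list had medians of 302 and 521 CPM in knockouts 1 and 3 and 2346 CPM in control 1. The mature neutrophil list had medians of 694 and 2743 CPM in knockouts 1 and 3 and 15844 CPM in control 1. These medians were not repeated with the left-out Cxcr2 barcodes, which lay in the knockout libraries only. Of the 16 G2/M genes, 1 was past 2-fold higher in knockout 1 and 3 in knockout 3, and none was lower. The genes on the lists that passed 2-fold the same way in both comparisons are given as values only, since both comparisons share control 1. The share of all genes that did so was not counted. Fos gave log2 ratios of 1.77 and 1.34, with 11 UMIs in control 1. Aurka, a mitotic kinase gene, gave 1.20 and 1.03, with 7 UMIs in control 1. Cx3cr1 had 42 and 20 UMIs in knockouts 1 and 3 and 2 UMIs in control 1. Cybb was lower in both, at 95.9 and 107 CPM against 245 CPM, and Zfp36, which encodes an mRNA-decay protein, gave -1.19 and -1.52.

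Some of the largest ratios rested on few barcodes. The 6 genes furthest higher in knockout 1, among those with 50 UMIs over both libraries, included Angpt1, with 142 UMIs in 6 of 21 barcodes, 103 of them in 1 barcode, and none in control 1. Chn2 was spread more widely, with 51 UMIs in 10 of 21 barcodes of knockout 1 and 10 UMIs in 2 of 7 of knockout 3, against 1 UMI in 12 barcodes of control 1. On the lower side, Tex14, known for its part in germ cell division, had 105 and 306 CPM in knockouts 1 and 3 and 718 CPM in control 1, or -2.78 and -1.23 as log2 ratios, and was read in 15 of 21, 7 of 7 and 7 of 12 barcodes. Camk1d, a calcium-dependent kinase gene, had 155 and 357 CPM in knockouts 1 and 3 and 736 CPM in control 1, or -2.25 and -1.04 as log2 ratios. Ncam1 had 71.5 and 74.1 CPM in knockouts 1 and 3 and 263 CPM in control 1, or -1.88 and -1.83, and was read in 11 of 21, 3 of 7 and 7 of 12 barcodes. Vcam1, an adhesion molecule gene, gave -2.48 and -2.49, with 9 of its UMIs in 1 barcode of knockout 3. These genes were picked by the size of their ratios in knockout 1, and no p-value is given.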

How the data were processed

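The deposited matrices hold UMI counts per gene and barcode. Per the file headers, the authors ran Cell Ranger in version 7.0.1 (libraries 1 and 2 of both groups) or 9.0.1 (libraries 3). GRCm39 is the build in the submitters' processing notes, which give version 9.0.1. Matrices 1 and 2 hold called cells, and matrices 3 hold every barcode and the hashtag counts, which stayed out of all totals. A kept barcode had 500 or more UMIs, 300 or more genes and a mitochondrial share of at most 20%. Doublets stayed in, and an alternative removed hashtag multiplets and the highest Scrublet scores (scanpy 1.11.5). CPM is a gene's UMIs per 1000000 of the barcode's or group's total. Libraries were the units of tests: shares were compared with exact two-sided permutation tests (scipy 1.17.1). The gene-by-gene tests planned with edgeR needed 2 libraries per group with at least 10 members, and the control group had 1, so gene differences are values without a test. A ratio needed 20 UMIs over both libraries, and a count of 0 was set to 3. Its script was tested on simulated data.

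Named genes are the 5 that define the cells, the leading genes against all other kept barcodes (a UMI in at least 25% of the cells and a higher level in each library with 10 cells), the highest members of the lists, and genes ranked by Spearman correlation with the defining genes. Members and lists were chosen with earlier results of these data known. The core barcodes, their 3 sets and the list ratios were set after values were seen, and genes picked from them are named as such. Pairing by replicate number was tried as an alternative, since labels give no shared litter or day. Intervals and limits for counts of 0 cover counting error only, at 95% and 3 counts. Samples of a group may share more than the labels say, so p-values measure the spread between libraries.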

Additional observations from a re-analysis of the deposited data

Results flagged for a closer look

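Transcripts of the defining genes appeared in the near-empty barcodes of knockout 3, those with at most 100 UMIs, which the comparisons do not use. Elane stood at 9.32 CPM, Mpo at 7.99 CPM, Prtn3 at 16.0 CPM, Ctsg at 7.54 CPM and Ms4a3 at 2.44 CPM over 4507271 UMIs there. In control 3 they stood at 0, 0.337, 7.76, 0.337 and 0 CPM over 2965262 UMIs. The matrices of the libraries numbered 1 and 2 hold no such barcodes. The part of this free RNA in the 2-gene members of knockout 3 was not tested.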

How the results depend on the processing

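The share of members among kept barcodes kept its sign and stayed past no threshold with 3 defining genes, 1000 UMIs, doublet marks or hepatocyte-rich barcodes left out, barcodes with Ptprc, at most 10% mitochondrial UMIs, mice as units, Cxcr2 barcodes added, or both libraries numbered 2 left out (the last 2 and the hepatocyte setting chosen after seeing the data). Leaving out 1 library at a time gave -0.169 to 0.465 percentage points, negative without knockout 1 alone. With pairs by replicate number (replicate block) it was 0.185 with p = 0.5 (exact permutation test, smallest possible p 0.25), and p was 0.476 with mice as units (exact permutation test). The share among granulocytes gave -12.7 to 24.8 percentage points, with -12.7 without knockout 1 and -0.774 without control 2, and the replicate block gave 8.35 (p = 0.5, exact permutation test). The cycling share difference went to -10.5 percentage points when thinned and -2.81 with doublet marks left out, and was 0.922 to 5.35 with 1 knockout library left out. For secondary granule transcripts it was 5.87, -2.56 with 3 defining genes, -3.68 with doublet marks left out, -4.25 thinned or with at least 2 genes, and 2.37 to 9.36 with 1 knockout library left out. No value exists without control 1, the one control library with 10 members. No paired analysis was possible for these 2 shares because 1 pair of same-numbered libraries had members enough. The gene tests in members, and their difference from mature neutrophils, were not run, and neither were their alternatives (DESeq2, library totals, no filter, replicate block and the rest). The libraries numbered 2 hold 134 kept barcodes in knockout 2 and 549 in control 2, so beside a count of 0 there 3 counts would be 2.24% and 0.546%.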
